A study of Mus musculus with 4 samples.

Results

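The miRNAs described here are those of the imprinted Dlk1-Dio3 region of mouse chromosome 12. They were chosen by name: a listed sequence was a member when it carried a mouse miRNA name whose number belongs to a fixed list of 48 numbers known from this region. Each sequence was taken once. This gave 67 members of 697 sequences with a mouse miRNA name and of 1482 listed sequences in all. The members came from 42 of the 48 numbers, and 28 were 5p arms and 39 were 3p arms. The rule itself uses no measured value.

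The small RNA came from exosomes that adipose tissue explants of wild-type C57BL/6 (B6) male mice released in culture. The labels give an age of 6 weeks and 4 months on the diet. The groups were exosomes of visceral white adipose tissue (vWAT-Exos, WAT in the labels) and of brown adipose tissue (BAT-Exos), each from mice on a high-fat diet (HFD) or a low-fat diet (LFD). There was 1 library for each of the 4 groups, and whether a library pools several mice is not stated in the sources used here. No value below therefore has a replicate error, no p-value can be given for diet or depot, and every difference is one between libraries.

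Imprinted genes are read from the copy of 1 parent. In the Dlk1-Dio3 region the paternal copy gives the protein-coding genes Dlk1, whose product (Pref-1) holds back the maturation of fat cells, Rtl1 and Dio3, the enzyme that inactivates thyroid hormone. The maternal copy gives the long noncoding RNAs Meg3, Rian and Mirg and, from the same strand, one of the largest miRNA clusters of mammals. These miRNAs are best known from brain, placenta, muscle and stem cells. A miRNA hairpin is cut by Dicer into a 5p arm and a 3p arm, and as a rule 1 of them is kept and the other degraded. A miRNA finds its targets mainly through its seed, bases 2 to 8.

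The positions of the hairpins follow the mouse build GRCm38. RefSeq placed 65 of the 67 members in 43 hairpins on chromosome 12, on the plus strand except for Mir299b, between 109571990 (start of Mir673) and 109747960 (end of Mir3072). miR-666-5p and miR-666-3p were the members without a placed hairpin. Mir431, Mir433, Mir127, Mir434 and Mir136 lie opposite to an exon of Rtl1 (109589193 to 109600330, minus strand), so that their miRNAs are complementary to the Rtl1 transcript. Mir341 and Mir370 lie in introns of Rian (109603940 to 109661716). The long block of hairpins begins with Mir379 (109709060 to 109709125), Mir411 (109710175 to 109710256), Mir299b (109710645 to 109710693) and Mir380 (109711803 to 109711863), which lie outside any annotated gene. Mir299b is read from the minus strand over the same bases as Mir299a (109710638 to 109710700, plus strand). The sequences listed as miR-299b-5p and miR-299b-3p are letter for letter RefSeq's miR-299a-5p and miR-299a-3p, and their names are kept here as listed. From Mir382 (109733771 to 109733846) onward the hairpins lie in exons and introns of Mirg (109729764 to 109749460).

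The sequences on which the results turn are given with the seed in capitals. They are RefSeq's mature sequences (GRCm38.p6), 5′ to 3′, and a RefSeq mature sequence of the same name was found for 63 members. First come both arms of the neighbouring hairpins Mir379 and Mir411, whose 5p arms had the largest ratios of vWAT-Exos over BAT-Exos on HFD. The 5p arms have the same base at 14 of 21 positions and differ at 1 base of the seed (G2A, the base of miR-379-5p first, counted from its 5′ end). The 3p arms have the same seed, which no other member has, and differ at U10C and U22C only.
miR-379-5p: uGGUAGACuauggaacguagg
miR-411-5p: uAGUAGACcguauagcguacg
miR-379-3p: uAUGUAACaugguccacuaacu
miR-411-3p: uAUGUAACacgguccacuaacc

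The next are both arms of hairpins antisense to Rtl1, which gave the most abundant members, and both arms of Mir329, whose balance moved most. They show the large difference in sequence between the arms of 1 hairpin.
miR-127-5p: cUGAAGCUcagagggcucugau
miR-127-3p: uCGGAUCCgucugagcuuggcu
miR-434-5p: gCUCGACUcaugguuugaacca
miR-434-3p: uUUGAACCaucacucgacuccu
miR-136-5p: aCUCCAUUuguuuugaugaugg
miR-136-3p: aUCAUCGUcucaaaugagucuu
miR-329-5p: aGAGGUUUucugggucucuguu
miR-329-3p: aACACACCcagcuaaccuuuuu

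The last are 3p arms that were lower in vWAT-Exos than in BAT-Exos, against the direction of most members, and the pair miR-300-3p and miR-381-3p. miR-543-3p and miR-495-3p have the same base at 18 of 22 positions, with U6A and U7A in the seed. miR-300-3p and miR-381-3p have the same base at 19 of 22 positions, with G4A in the seed. Of the listed forms of the members, 31 were identical to RefSeq, and most others differed at the 3′ end. The listed form of miR-136-3p began 1 base earlier than RefSeq's, so that its seed is another one.
miR-543-3p: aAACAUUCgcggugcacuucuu
miR-495-3p: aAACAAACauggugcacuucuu
miR-433-3p: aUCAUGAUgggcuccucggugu
miR-300-3p: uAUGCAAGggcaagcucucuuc
miR-381-3p: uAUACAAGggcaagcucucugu

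The values are normalized counts per library, called norm values. Their library totals were 2839850 in HFD vWAT-Exos, 2585590 in LFD vWAT-Exos, 5832550 in HFD BAT-Exos and 5650700 in LFD BAT-Exos, and the sources used here do not state their scaling. The norm value of 1 read was inferred as 2.37 in HFD vWAT-Exos, 1.36 in LFD vWAT-Exos, 0.706 in HFD BAT-Exos and 0.825 in LFD BAT-Exos. By this the members rest on about 5669, 11002, 13442 and 14734 reads in the same order. Intervals are 95% intervals for counting error in these inferred reads and hold no variation from mouse to mouse or from preparation to preparation. As a check of the depot labels, miR-378a, a miRNA of brown fat encoded in Ppargc1b, held 3.99% and 2.76% of the HFD and LFD vWAT-Exos libraries, against 35.7% and 37.4% of the HFD and LFD BAT-Exos libraries.

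The miRNAs of the region were a minor part of the exosomal miRNA and a larger part in vWAT-Exos than in BAT-Exos. They held 0.473% of the HFD vWAT-Exos library (exact binomial interval 0.461 to 0.486), 0.579% of the LFD vWAT-Exos library (0.569 to 0.590), 0.163% of the HFD BAT-Exos library (0.160 to 0.165) and 0.215% of the LFD BAT-Exos library (0.212 to 0.219). The share was thus 2.91 times as large in vWAT-Exos as in BAT-Exos on HFD and 2.69 times as large on LFD. In either depot it was lower on HFD, at 0.816 times the LFD share in vWAT-Exos and 0.756 times in BAT-Exos. Part of the depot ratio follows from miR-378a, which fills over 35% of the BAT-Exos libraries. With miR-378a left out of the totals, the shares were 0.493% in HFD vWAT-Exos, 0.596% in LFD vWAT-Exos, 0.253% in HFD BAT-Exos and 0.344% in LFD BAT-Exos. In summed norm values the members had 13434.5 in HFD vWAT-Exos, 14983 in LFD vWAT-Exos, 9485 in HFD BAT-Exos and 12161 in LFD BAT-Exos.

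**Figure D1:**
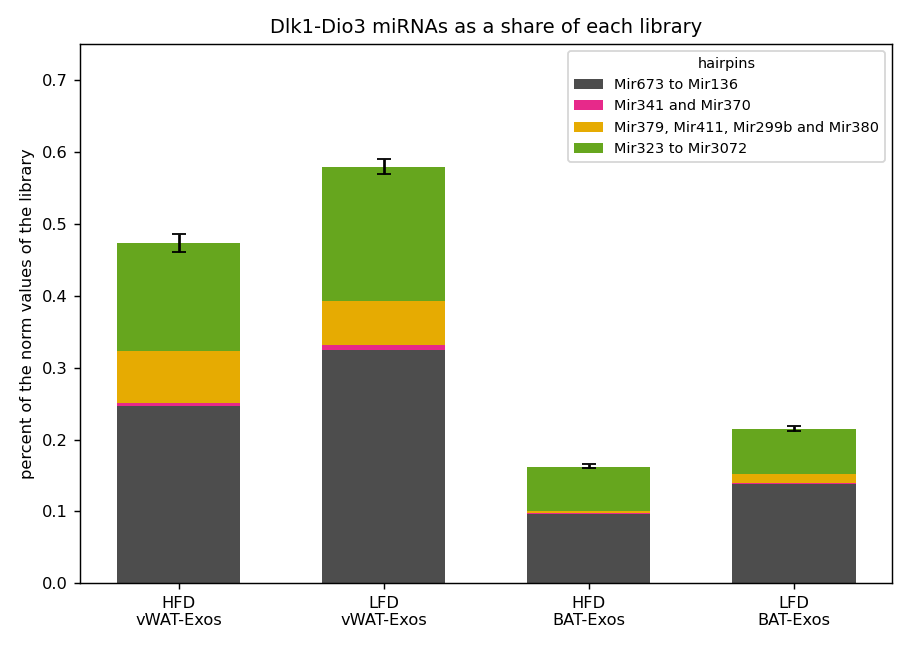
Share of each library's norm values held by the 67 members, in percent, stacked by stretch of the region. Error bars are 95% exact binomial intervals of the whole share, for counting error in approximate reads. Both vWAT-Exos bars (0.473% on HFD and 0.579% on LFD) stand above both BAT-Exos bars (0.163% on HFD and 0.215% on LFD), and the stretch of Mir379, Mir411, Mir299b and Mir380 is thinnest in HFD BAT-Exos.

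A few members held most of this signal. miR-127-3p, which is complementary to Rtl1 over its whole length, had norm values of 4024 in HFD vWAT-Exos, 4287 in LFD vWAT-Exos, 2490.1 in HFD BAT-Exos and 3942 in LFD BAT-Exos. It was the most abundant member of every library and made up between 26.3% (HFD BAT-Exos) and 32.4% (LFD BAT-Exos) of the members' sum. Among the 697 sequences it ranked 69 and 65 in HFD and LFD vWAT-Exos, against 99 and 76 in HFD and LFD BAT-Exos. Its neighbour miR-434-3p had 988 in HFD vWAT-Exos, 1539 in LFD vWAT-Exos, 1864 in HFD BAT-Exos and 2086 in LFD BAT-Exos. miR-136-3p had 782 in HFD vWAT-Exos, 1124 in LFD vWAT-Exos, 608 in HFD BAT-Exos and 836 in LFD BAT-Exos. These 3 miRNAs, all antisense to Rtl1, made up 43.1% and 46.4% of the members' sum in HFD and LFD vWAT-Exos and 52.3% and 56.4% in HFD and LFD BAT-Exos.

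From the long block, miR-541-5p, encoded in an intron of Mirg, had 938 in HFD vWAT-Exos, 919 in LFD vWAT-Exos, 415 in HFD BAT-Exos and 669 in LFD BAT-Exos. miR-300-3p had 893 in HFD vWAT-Exos, 839 in LFD vWAT-Exos, 588 in HFD BAT-Exos and 410.2 in LFD BAT-Exos. Its near copy miR-381-3p had 298.6, 373, 162 and 242 in the same order. miR-369-3p had 284 in HFD vWAT-Exos, 448 in LFD vWAT-Exos, 483.4 in HFD BAT-Exos and 461 in LFD BAT-Exos. miR-382-5p was the most even of these, with 222.8 in HFD vWAT-Exos, 249 in LFD vWAT-Exos, 248 in HFD BAT-Exos and 284 in LFD BAT-Exos.

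Of the 67 members, 28 reached a norm value of 100 in at least 1 library and 13 did so in all 4. Another 29 were above 0 but below 100 everywhere, and 10 were listed at 0 in all 4 libraries. Those at 0 included the opposite arms of measured miRNAs, such as miR-134-3p and miR-154-3p, and also miR-758-3p and miR-3072-3p. Members above 0 numbered 46 in HFD vWAT-Exos, 54 in LFD vWAT-Exos, 48 in HFD BAT-Exos and 49 in LFD BAT-Exos. A value of 0 is no proof of absence, because few listed values stood below 5 approximate reads, which are a norm value of 11.8 in HFD vWAT-Exos, 6.81 in LFD vWAT-Exos, 3.53 in HFD BAT-Exos and 4.13 in LFD BAT-Exos.

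**Figure D2:**
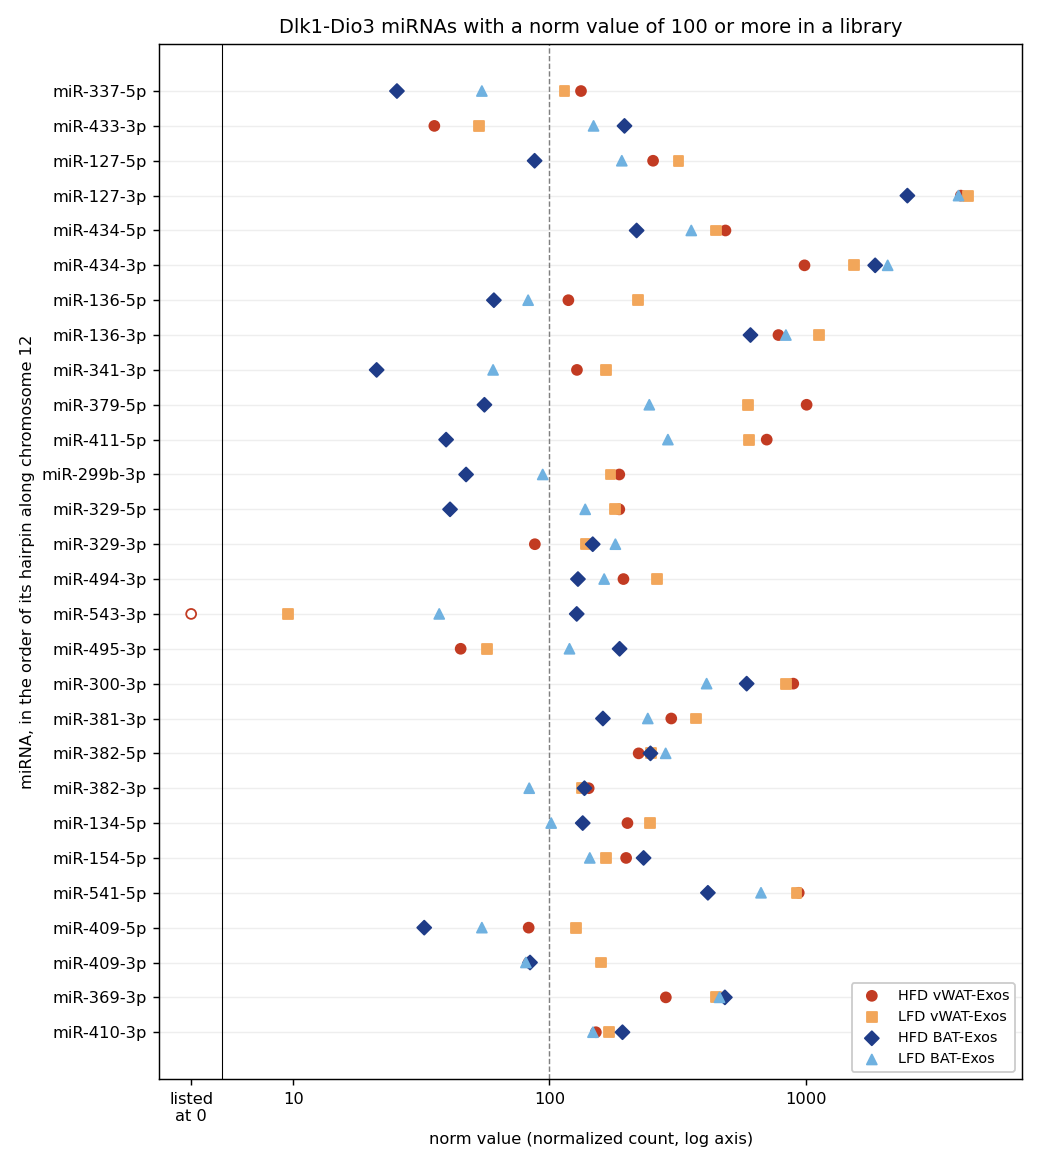
Norm values (log axis) of the 28 members that reached 100 in at least 1 library, in the order of their hairpins along chromosome 12, with 1 point for each library. The dashed line marks 100, and the open point marks a value listed at 0. miR-379-5p and miR-411-5p had their lowest value in HFD BAT-Exos, while miR-543-3p was lowest in HFD vWAT-Exos, where it was listed at 0.

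The comparison of HFD with LFD asks what diet-induced obesity does to the miRNAs that adipose tissue exports. A miRNA was counted as higher or lower when the norm values of both libraries differed by at least 2-fold and 1 of them was at least 100. In BAT-Exos 22 members reached 100 in the HFD or the LFD library. On HFD 1 was at least 2-fold higher, where the background over all 283 mouse-named sequences at that level was 7.42%, and 4 were at least 2-fold lower, where the background was 12.4%. The other 17 lay within 2-fold. The members' median log2 ratio was -0.24, against 0.07 over all mouse-named sequences (all log2 ratios are of norm value + 1), and 13 of 22 were below 0.

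The members that were lower on HFD in BAT-Exos were 5p arms. miR-411-5p had 39.5 (56 reads) in HFD BAT-Exos and 289.7 (351 reads) in LFD BAT-Exos, 7.33-fold lower on HFD (5.52 to 9.90). miR-379-5p, whose hairpin opens the block and which in rat neurons is made under control of the factor Mef2, had 55.7 (79 reads) in HFD BAT-Exos and 245 (297 reads) in LFD BAT-Exos, 4.40-fold lower (3.42 to 5.71). By rank among the 697 sequences, which does not depend on scaling, miR-411-5p stood 46.9% from the top in HFD BAT-Exos against 28.6% in LFD BAT-Exos, and miR-379-5p 42.9% against 29.8%.

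Further along the block, miR-329-5p had 40.9 in HFD BAT-Exos and 137.8 in LFD BAT-Exos, 3.37-fold lower on HFD (2.48 to 4.62). Opposite to Rtl1, miR-127-5p had 87.5 in HFD BAT-Exos and 191 in LFD BAT-Exos, 2.19-fold lower (1.75 to 2.74), the member closest to the threshold. Just outside it was miR-434-5p, with 218.7 in HFD BAT-Exos and 357 in LFD BAT-Exos (1.63-fold lower). The most abundant member, miR-127-3p, was 1.58-fold lower (1.51 to 1.65).

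miR-543-3p went the other way. It had 127.7 (181 reads) in HFD BAT-Exos and 37.1 (45 reads) in LFD BAT-Exos, 3.44-fold higher on HFD (2.47 to 4.88), the largest upward difference in BAT-Exos among members at 100 or more in 1 of both libraries. Its relative miR-495-3p had 188 in HFD BAT-Exos and 119.7 in LFD BAT-Exos (1.57-fold higher), miR-154-5p had 233 and 143.6 (1.62-fold), and miR-382-3p had 137 and 83.4 (1.64-fold), all within 2-fold. miR-433-3p, antisense to Rtl1, had 196 in HFD BAT-Exos and 149 in LFD BAT-Exos.

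Some of the low values lay side by side on the chromosome. This stretch was chosen after its values were seen, so its counts are a description only. The hairpins Mir379, Mir411, Mir299b and Mir380 gave 8 members, of which 7 were above 0 in BAT-Exos. All 7 were lower in HFD BAT-Exos than in LFD BAT-Exos, 6 of them by at least 2-fold, with log2 ratios between -4.80 and -0.98. Of the other 44 members above 0 in BAT-Exos, 22 were lower and 22 higher, with a median log2 ratio of 0.02, and 9 were at least 2-fold lower and 4 at least 2-fold higher. Over all 583 mouse-named sequences above 0 in BAT-Exos, 22.98% were at least 2-fold lower on HFD and 18.0% at least 2-fold higher. miR-329-5p and miR-127-5p lie outside the stretch. Most members of the stretch were low. miR-379-3p was listed at 0 in HFD BAT-Exos and had 26.8 in LFD BAT-Exos, which against 5 reads is at least 7.603-fold lower. miR-411-3p had 9.17 in HFD BAT-Exos and 41.7 in LFD BAT-Exos. miR-299b-3p had 47.3 in HFD BAT-Exos and 94.1 in LFD BAT-Exos, below 100 in both.

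Summed, the 8 members had 160 in HFD BAT-Exos and 725 in LFD BAT-Exos, 4.52-fold lower on HFD. The later hairpins of the block, from Mir323 to Mir3072, had 3635 in HFD BAT-Exos and 3572 in LFD BAT-Exos, a ratio of 1.02. The hairpins from Mir673 to Mir136 had 5663 in HFD BAT-Exos and 7804 in LFD BAT-Exos, a ratio of 0.726. The hairpins in Rian, Mir341 and Mir370, had 21.2 in HFD BAT-Exos and 60.3 in LFD BAT-Exos, 2.85-fold lower on HFD. Of all that the members held, Mir379, Mir411, Mir299b and Mir380 took 1.69% in HFD BAT-Exos and 5.96% in LFD BAT-Exos.

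Other miRNAs of the HFD BAT-Exos library differed as well, beside these results. Of 9 sequences of striated muscle miRNAs (miR-1a, miR-133, miR-206, miR-208, miR-499), 7 reached 100 in BAT-Exos, and all 7 were at least 2-fold higher on HFD. Their summed norm value was 23162 in HFD BAT-Exos and 4251 in LFD BAT-Exos. Of the 9, miR-1a-1-5p, miR-208a-3p and miR-208b-3p were listed at 0 in at least 1 of the 4 libraries. Epithelial miRNAs (miR-200, miR-141, miR-429, miR-205; 9 sequences) summed to 720 in HFD BAT-Exos and 5305 in LFD BAT-Exos, and all 5 that reached 100 were at least 2-fold lower on HFD. Of these 9, miR-200a-5p, miR-200b-5p and miR-205-3p were at 0 in at least 1 library. Stromal miRNAs (miR-143, miR-145, miR-199, miR-214; 9 sequences, none at 0) summed to 97973 in HFD BAT-Exos and 113551 in LFD BAT-Exos. Of the 8 that reached 100, 2 were at least 2-fold lower on HFD and 0 higher, with a median log2 ratio of -0.35. The part of these tissue differences in the values of the Dlk1-Dio3 miRNAs was not tested. In bulk material, fewer cells of a type and less RNA per cell cannot be told apart.

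**Figure D3:**
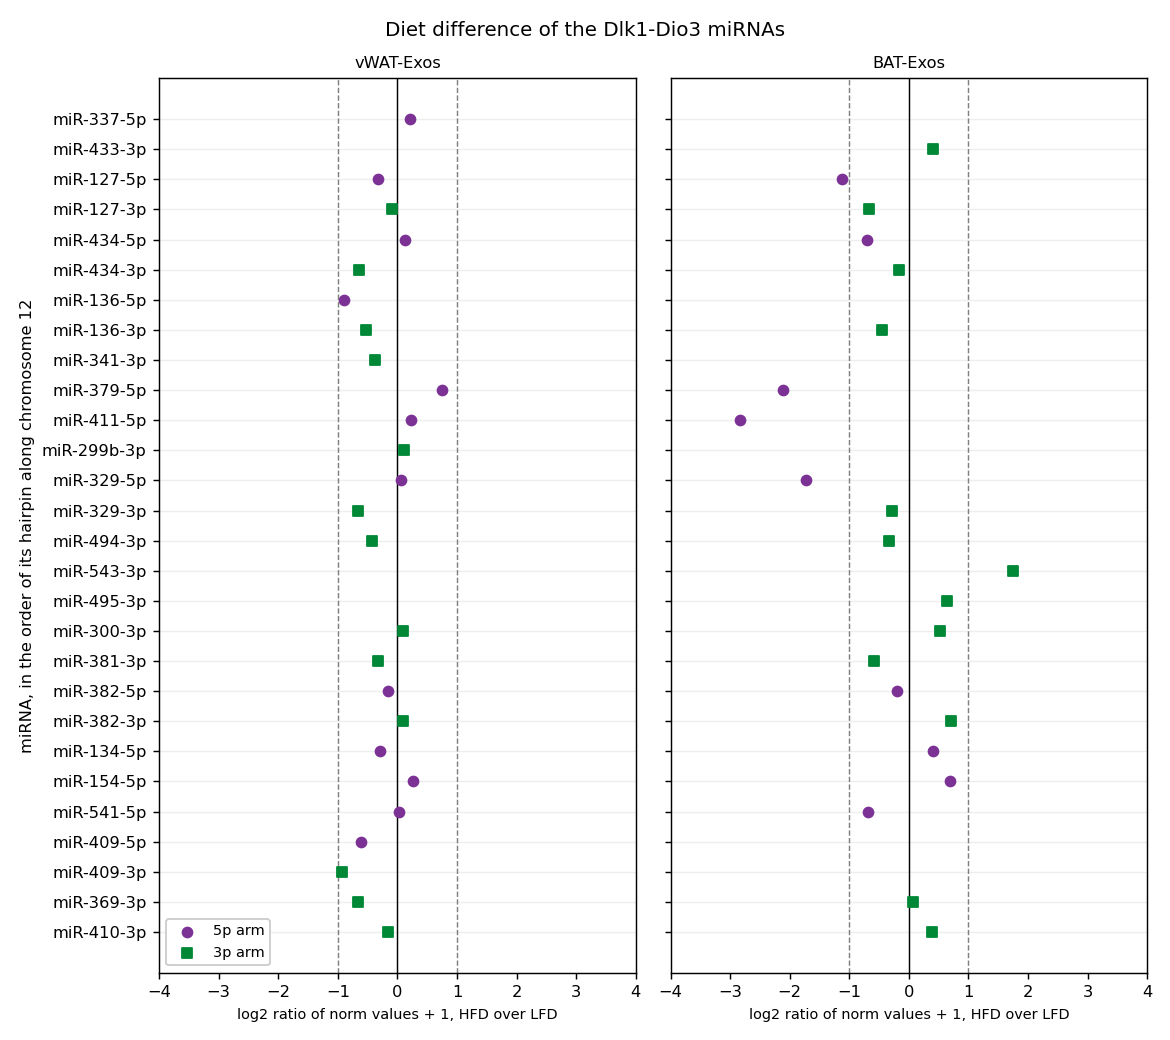
Log2 ratio of norm value + 1, HFD over LFD, in vWAT-Exos (left) and BAT-Exos (right), for members at 100 or more in 1 of the libraries compared, in chromosomal order and coloured by arm. Dashed lines mark 2-fold. All 25 points of vWAT-Exos lie within the lines, while in BAT-Exos miR-411-5p (-2.84), miR-379-5p (-2.12), miR-329-5p (-1.73) and miR-127-5p (-1.12) lie below and miR-543-3p (1.75) above.

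In vWAT-Exos 25 members reached 100 in the HFD or the LFD library, and none was 2-fold apart. The background over 283 mouse-named sequences was 5.65% higher and 4.59% lower. With 1 library per diet no test could be run on these counts. The members' log2 ratios ran between -0.93 and 0.75 with a median of -0.17, against 0.04 over all mouse-named sequences, and 15 of 25 were below 0. Scaled to the library totals, 6 of the 25 ratios changed sign. Closest to the threshold was miR-409-3p, with 82.9 (35 reads) in HFD vWAT-Exos and 159 (117 reads) in LFD vWAT-Exos, 1.92-fold lower on HFD (1.31 to 2.89). miR-136-5p had 118 in HFD vWAT-Exos and 222 in LFD vWAT-Exos, 1.87-fold lower (1.36 to 2.63). miR-434-3p was 1.56-fold lower (1.39 to 1.75). miR-127-3p was 1.07-fold lower on HFD (1.004 to 1.131).

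Above 0, the largest ratio of vWAT-Exos was that of miR-379-5p, the miRNA that was 4.40-fold lower on HFD in BAT-Exos. It had 1007 (425 reads) in HFD vWAT-Exos and 596 (438 reads) in LFD vWAT-Exos, 1.69-fold higher on HFD (1.47 to 1.93). miR-411-5p had 704 in HFD vWAT-Exos and 602 in LFD vWAT-Exos, 1.17-fold higher (1.01 to 1.36). The 8 members of Mir379, Mir411, Mir299b and Mir380 summed to 2048 in HFD vWAT-Exos and 1576 in LFD vWAT-Exos, 1.30-fold higher, and took 15.2% and 10.5% of the members' sum. This rested on miR-379-5p and miR-411-5p: of the 8, 5 were lower and 3 higher on HFD, and miR-411-3p had 37.9 in HFD vWAT-Exos and 57.2 in LFD vWAT-Exos. The later hairpins of the block had 4259 in HFD vWAT-Exos and 4830.4 in LFD vWAT-Exos, a ratio of 0.882.

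Across the 28 members that reached 100 in at least 1 library, the diet ratios of both depots had the same sign for 14. Their Pearson correlation was -0.55 and their Spearman correlation -0.33, against -0.07 and 0.02 over 320 mouse-named sequences. These are correlations across miRNAs of single libraries, and the count of equal signs belongs to the values as deposited. The points are not independent, because neighbouring hairpins can come from 1 transcript, and miR-379-5p, miR-411-5p and miR-543-3p lie farthest from the rest.

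The comparison of vWAT-Exos with BAT-Exos asks how exosomes of both depots differ in content. On HFD 26 members reached 100 in 1 of both libraries. In vWAT-Exos 9 of them were at least 2-fold higher, at a background of 30.6% over 307 mouse-named sequences, and 3 were at least 2-fold lower, at a background of 32.2%. On LFD 27 members reached 100, and 8 of them were at least 2-fold higher in vWAT-Exos, at a background of 23.4% over 303 mouse-named sequences, and 2 were at least 2-fold lower, at a background of 29.4%. The share of members higher in vWAT-Exos, 34.6% on HFD and 29.6% on LFD, was thus near the background, while the shares lower, 11.5% and 7.41%, were below it. The members' median log2 ratio was 0.59 on HFD and 0.62 on LFD, against -0.27 and -0.19 over all mouse-named sequences.

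This balance depends on how the libraries are scaled, because the norm totals of the BAT-Exos libraries were larger than those of the vWAT-Exos libraries. Scaled to the library totals, 20 of 28 members on HFD and 25 of 29 on LFD were at least 2-fold higher in vWAT-Exos, at backgrounds of 48.1% and 52.2% over all mouse-named sequences. Lower were 2 and 0, at backgrounds of 19.7% and 12.1%. The median log2 ratio of all mouse-named sequences moved to 0.91 and 1.12. Against that shift the members' medians of 1.69 and 1.79 were 0.78 and 0.67 higher. With the values as deposited they were 0.87 and 0.81 higher. Rescaling moves all ratios of a comparison alike, so this distance can change only through the floor and the added 1. Its likeness under both scalings is therefore no separate support. The counts of higher and lower members depend on the scaling used.

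**Figure D4:**
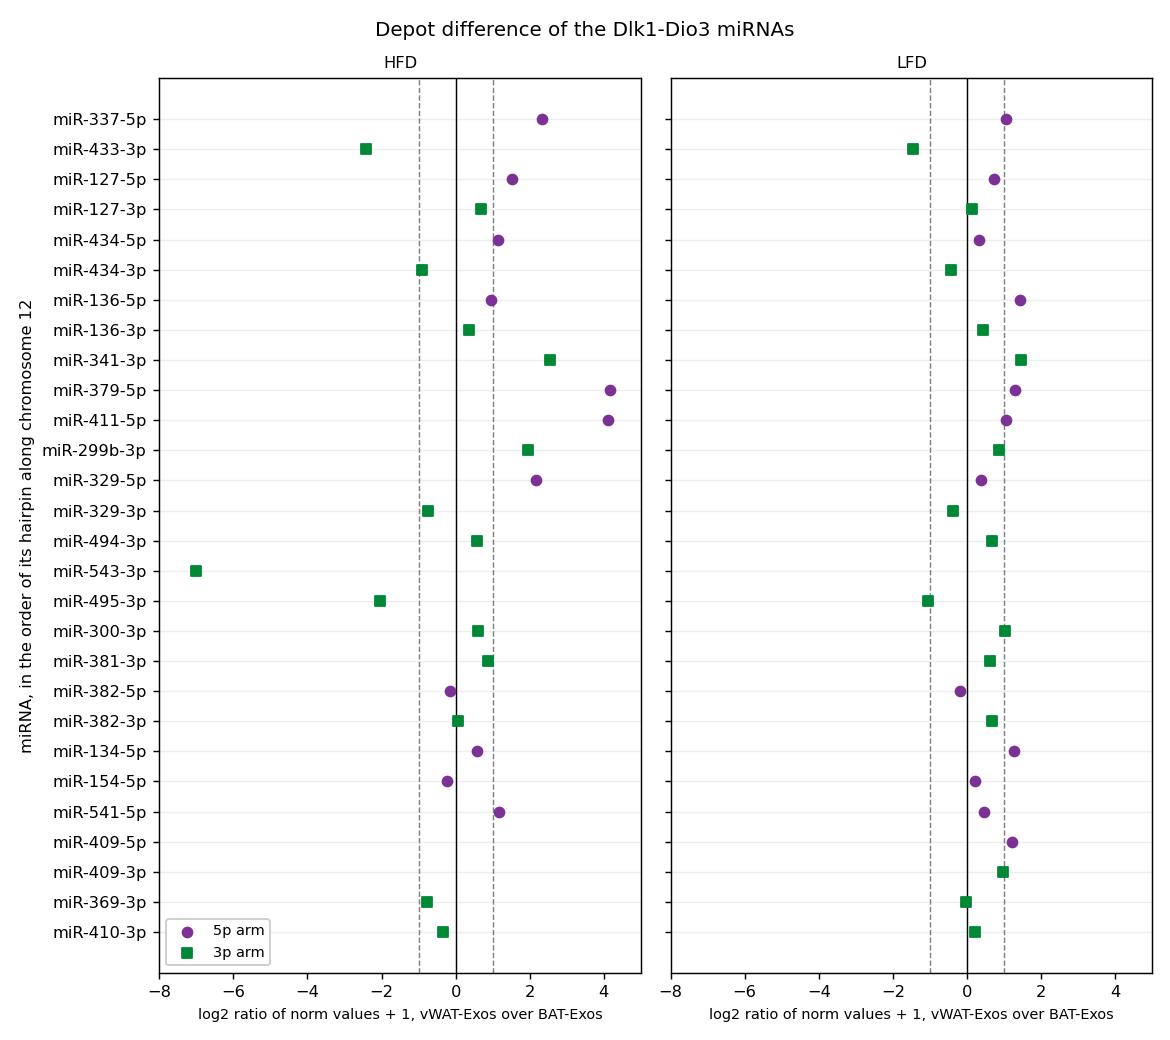
Log2 ratio of norm value + 1, vWAT-Exos over BAT-Exos, on HFD (left) and LFD (right), for members at 100 or more in 1 of the libraries compared, in chromosomal order and coloured by arm. Dashed lines mark 2-fold. On HFD miR-379-5p (4.15) and miR-411-5p (4.12) lie farthest to the right, and miR-543-3p (-7.01), listed at 0 in vWAT-Exos so that its place depends on the added 1, farthest to the left.

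Among members above 0 in both HFD libraries, the largest ratios of vWAT-Exos over BAT-Exos were those of miR-379-5p and miR-411-5p. On HFD miR-379-5p had 1007 in vWAT-Exos and 55.7 in BAT-Exos, 18.1-fold higher in vWAT-Exos (14.2 to 23.3), and miR-411-5p had 704 and 39.5, 17.8-fold higher (13.4 to 24.1). On LFD miR-379-5p had 596 in vWAT-Exos and 245 in BAT-Exos, 2.43-fold higher (2.09 to 2.83), and miR-411-5p had 602 and 289.7, 2.08-fold higher (1.80 to 2.40). The depots thus differed in the same direction on both diets. Most of the widening on HFD came with the low values in HFD BAT-Exos.

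miR-341-3p, from an intron of Rian, was next on HFD, with 127.97 in vWAT-Exos and 21.2 in BAT-Exos (6.05-fold higher, 3.80 to 9.79). On LFD it was first among members at 100 or more in 1 of both libraries. It had 166 in vWAT-Exos and 60.3 in BAT-Exos there (2.76-fold higher, 2.05 to 3.74). miR-337-5p, from a hairpin between Meg3 and Rtl1, had 132.7 in vWAT-Exos and 25.4 in BAT-Exos on HFD (5.22-fold higher). On LFD it had 114 in vWAT-Exos and 54.5 in BAT-Exos (2.10-fold higher). Among members at 100 or more in 1 of both libraries, these 4 were at least 2-fold higher in vWAT-Exos on both diets. On HFD they were joined by miR-329-5p (4.57-fold), miR-299b-3p (3.96-fold), miR-127-5p (2.90-fold), miR-541-5p (2.26-fold) and miR-434-5p (2.22-fold). On LFD they were joined by miR-136-5p (2.69-fold), miR-134-5p (2.43-fold), which in rat neurons limits the growth of dendritic spines, miR-409-5p (2.32-fold) and miR-300-3p (2.04-fold). On HFD miR-409-5p was 2.56-fold higher as well, but below 100 in both libraries.

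The members lower in vWAT-Exos were 3p arms. miR-433-3p had 35.5 in vWAT-Exos and 196 in BAT-Exos on HFD (5.52-fold lower, 3.29 to 9.99), and 53.1 in vWAT-Exos and 149 in BAT-Exos on LFD (2.80-fold lower, 1.97 to 4.06). miR-495-3p had 45.0 in vWAT-Exos and 188 in BAT-Exos on HFD (4.17-fold lower, 2.62 to 7.03), and 57.2 in vWAT-Exos and 119.7 in BAT-Exos on LFD (2.09-fold lower, 1.48 to 3.02). Scaled to the library totals, the LFD difference of miR-495-3p turned round, to a log2 ratio of 0.06, and its HFD log2 ratio was -1.01. The log2 ratio of miR-433-3p moved under that scaling from -2.43 to -1.41 on HFD and from -1.47 to -0.35 on LFD. miR-543-3p was listed at 0 in HFD vWAT-Exos against 127.7 in HFD BAT-Exos, which against 5 reads is at least 10.8-fold lower, and had 9.53 in LFD vWAT-Exos and 37.1 in LFD BAT-Exos. The abundant miR-434-3p was 1.89-fold lower in vWAT-Exos on HFD (1.70 to 2.10) and 1.36-fold lower on LFD (1.26 to 1.45), but scaled to the library totals it turned round on both, to log2 ratios of 0.12 and 0.69. In all, 6 of 26 members on HFD and 5 of 27 on LFD changed sign under that scaling.

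The depot ratios of the members on HFD and on LFD had the same sign for 25 of 28, with a Pearson correlation of 0.84 and a Spearman correlation of 0.78. Over 320 mouse-named sequences the values were 0.84 and 0.85, so the likeness between diets was about as large over all sequences. The same libraries also differed in miRNAs of leukocytes, erythroid cells and muscle. Leukocyte miRNAs (miR-142, miR-223, miR-150; 6 sequences, none at 0) summed to 44348 and 40509.6 in HFD and LFD vWAT-Exos, against 2719 and 4285 in HFD and LFD BAT-Exos. The sum of 6 erythroid sequences, with miR-486a-3p at 0 in at least 1 library, went the other way. It was 10287 and 6981 in HFD and LFD vWAT-Exos, against 26823.5 and 21895 in HFD and LFD BAT-Exos. Of the 4 erythroid sequences abundant enough to be counted, 2 were at least 2-fold higher in vWAT-Exos on HFD and 2 lower. On LFD 0 were higher and 2 lower. Striated muscle miRNAs summed to 1408 and 1572 in HFD and LFD vWAT-Exos, and brown fat miRNAs (miR-378, miR-193, miR-365; 12 sequences, with miR-365-1-5p and miR-365-2-5p at 0 in at least 1 library) to 143090 and 91896, against 2527040 and 2576690 in HFD and LFD BAT-Exos. The part of these differences in the depot ratios of the Dlk1-Dio3 miRNAs was not tested.

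The members are given next by arm, and whether the arms differ was not tested. On HFD 7 of 11 5p members at the floor were at least 2-fold higher in vWAT-Exos and 0 lower, with a median log2 ratio of 1.18, while of 15 3p members 2 were higher and 3 lower, with a median of 0.05. The backgrounds over all mouse-named sequences of the same arm were 40.1% higher and 29.2% lower for 5p, and 22.8% higher and 33.6% lower for 3p. On LFD 6 of 12 5p members were higher and 0 lower (median 0.89), and of 15 3p members 2 were higher and 2 lower (median 0.43), at backgrounds of 28.4% higher and 25.4% lower for 5p, and 20.8% higher and 29.9% lower for 3p. In the diet comparison of BAT-Exos, 4 of 9 5p members were lower on HFD and 0 higher (median -0.71), against 0 lower and 1 higher of 13 3p members (median 0.07). The backgrounds there were 13.4% lower and 3.94% higher for 5p, and 8.96% lower and 11.9% higher for 3p. The 3p arms of Mir379 and Mir411 were below the floor in BAT-Exos and are not in this count. Of these, miR-411-3p was 4.54-fold lower on HFD (2.41 to 9.03), and miR-379-3p had 26.8 on LFD and 0 on HFD. miR-337-3p, also below the floor, was 1.88-fold higher on HFD. In vWAT-Exos the medians on diet were 0.04 over 12 5p members and -0.37 over 13 3p members.

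Both arms of 1 hairpin come from the same precursor, so that their ratio within a library does not depend on scaling or on how much precursor was made. In 6 hairpins both arms reached 100 in at least 1 library. For Mir434 the 5p arm stood at 0.492 of the 3p arm in HFD vWAT-Exos and 0.290 in LFD vWAT-Exos, against 0.117 in HFD BAT-Exos and 0.171 in LFD BAT-Exos. For Mir329 it stood at 2.13 and 1.29 in HFD and LFD vWAT-Exos, against 0.278 and 0.763 in HFD and LFD BAT-Exos, so that the more abundant arm was not the same in both depots. For Mir127 it stood at 0.0630 and 0.0743 in HFD and LFD vWAT-Exos, against 0.0351 and 0.0486 in HFD and LFD BAT-Exos. For Mir136 it stood at 0.152 and 0.198 in HFD and LFD vWAT-Exos, against 0.0998 and 0.0987 in HFD and LFD BAT-Exos.

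Mir409 had equal values of both arms (82.9) in HFD vWAT-Exos and a ratio of 0.795 in LFD vWAT-Exos, against 0.387 and 0.673 in HFD and LFD BAT-Exos. Mir382 was the exception among the 6, with 1.57 and 1.87 in HFD and LFD vWAT-Exos, against 1.81 and 3.41 in HFD and LFD BAT-Exos. In 5 of 6 hairpins the 5p share was thus higher in vWAT-Exos than in BAT-Exos on either diet, by a median of 1.11 on HFD and 0.69 on LFD (log2). Of 63 other mouse hairpins measured in the same way, 31 on HFD and 27 on LFD had a higher 5p share in vWAT-Exos, with medians of -0.09 and -0.27. With the lower limit that both arms be above 0 in all libraries, 8 of 10 hairpins on HFD (median 1.11) and 6 of 10 on LFD (median 0.42) had a higher 5p share in vWAT-Exos, against 40 and 38 of 85 other hairpins.

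For diet, the 5p share was lower in HFD BAT-Exos than in LFD BAT-Exos in 5 of these 6 hairpins (median difference -0.67), with Mir136 at 0.02. Of the 63 other hairpins at the same limit, 32 had a lower 5p share there (median -0.02). With the lower limit, 9 of 10 hairpins had a lower 5p share in HFD BAT-Exos (median -0.85), among them Mir337 and Mir376b, whose 5p arm was the more abundant one in LFD BAT-Exos and the less abundant one in HFD BAT-Exos. Of 85 other hairpins, 47 had a lower 5p share there (median -0.19). In vWAT-Exos 3 of 6 hairpins had a lower 5p share on HFD, against 25 of 63 other hairpins. The smallest approximate read number behind these ratios was 35 for the 6 hairpins and 5, in Mir540, for the 10. In LFD and HFD BAT-Exos, Mir376b rested on about 33 and 20 reads of its 5p arm and 25 and 49 of its 3p arm. Its 5p excess on LFD was thus a matter of few reads. Mir337 had about 66 and 36 reads of its 5p arm and 35 and 77 of its 3p arm in the same order. The listed sequence stands for an arm here, and forms of the arm that the table does not list separately were not counted.

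**Figure D5:**
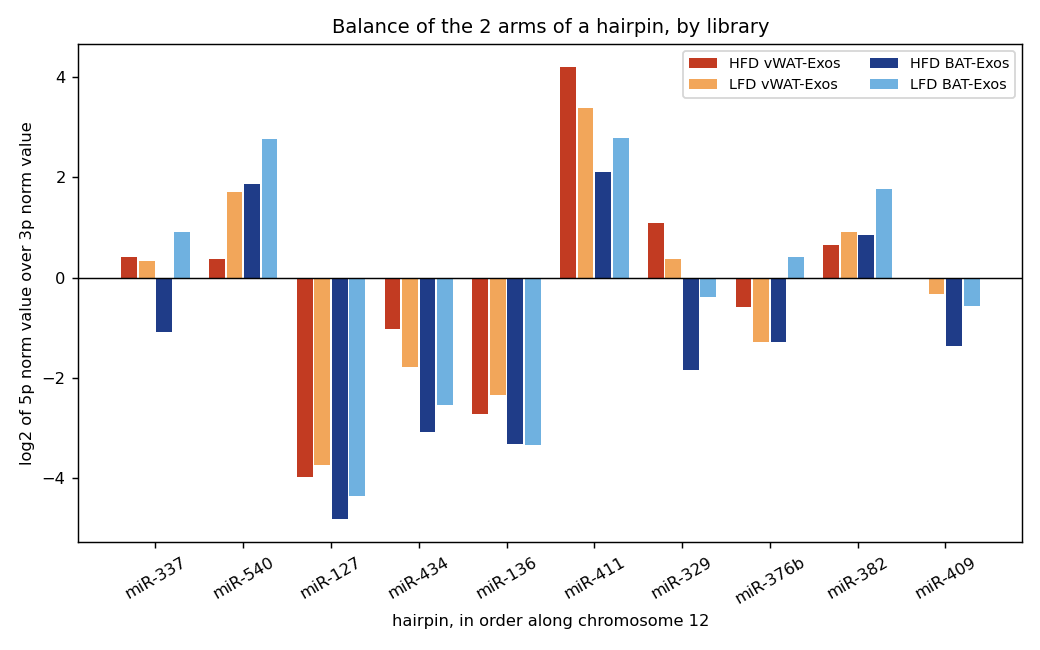
Log2 of the norm value of the 5p arm over that of the 3p arm for the 10 hairpins with both arms above 0 in all 4 libraries, with 1 bar for each library. Bars above 0 mean more 5p arm. For Mir127, Mir434, Mir136, Mir411, Mir329 and Mir409 both vWAT-Exos bars lie above both BAT-Exos bars, and HFD BAT-Exos has the lowest bar for Mir337, Mir127, Mir434, Mir411, Mir329, Mir376b and Mir409.

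The remaining 29 members, below 100 everywhere, rest on few reads. Among those with over 20 reads in a library, miR-376c-3p, of a family known for editing of A to I in brain, had 52.1 in HFD vWAT-Exos and 16.3 in LFD vWAT-Exos, against 16.2 and 14.9 in HFD and LFD BAT-Exos. miR-377-3p had 21.3 in HFD vWAT-Exos and 70.8 in LFD vWAT-Exos, against 72.7 and 47.9 in HFD and LFD BAT-Exos. miR-323-3p had 19.0 and 34.0 in HFD and LFD vWAT-Exos, against 60.7 and 50.3 in HFD and LFD BAT-Exos. miR-665-3p was listed at 0 in both BAT-Exos libraries and had 14.2 in HFD vWAT-Exos and 39.5 in LFD vWAT-Exos. miR-370-3p, from an intron of Rian, was listed in LFD vWAT-Exos alone, at 8.17.

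Of the miRNAs outside the list of numbers, 3 mouse-named sequences come from hairpins between Dlk1 and Dio3. miR-1197-3p was listed in HFD BAT-Exos alone, at 5.64. miR-1247-5p, from a hairpin near Dio3, had 25.9 in LFD vWAT-Exos and 5.78 in LFD BAT-Exos and was listed at 0 in both HFD libraries. miR-1247-3p was listed at 0 in all 4. As other imprinted miRNAs, the 7 sequences of miR-335, miR-296, miR-298, miR-483 and miR-675 summed to 41732.5 in HFD vWAT-Exos and 12055 in LFD vWAT-Exos, 3.46-fold higher on HFD, and to 4308 in HFD BAT-Exos and 3996 in LFD BAT-Exos. Of the 4 that reached 100 in vWAT-Exos, 1 was at least 2-fold higher on HFD and 0 lower, with a median log2 ratio of 0.03, and miR-296-5p, miR-483-3p and miR-483-5p were at 0 in at least 1 library.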

How the data were processed

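Exosomes were prepared from explants of vWAT and BAT, and TruSeq small RNA libraries were sequenced on an Illumina HiSeq 2500. The authors processed the reads with ACGT101-miR and deposited a normalized signal (norm value) per listed sequence and library. The sources used here do not state how it was scaled. Although the samples are mouse, the labels give the human build GRCh38.

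Duplicate sequences were taken once, and 3 emptied lines of the table were left out. The members, lists and tests were chosen with earlier results of these data known. Sequences 2-fold apart that reached 100 in 1 of both libraries were counted, with no test, since each group had 1 library. Log2 ratios used a pseudocount of 1. The value of 1 read was the commonest ratio of norm value to the number in the name of predicted entries listed in 1 library alone, which rested on 3 of 3 such entries in HFD vWAT-Exos, 2 of 5 in LFD vWAT-Exos, 100 of 112 in HFD BAT-Exos and 127 of 146 in LFD BAT-Exos. Intervals were exact binomial. Members named were the 12 with the highest mean, the 5 largest ratios in each direction per comparison, those next to the threshold, both arms of hairpins with both at 100, and those sharing a seed. Other low members and the stretch from Mir379 to Mir380 were picked with their values in view. The counting was tested on simulated data. Alternatives changed scaling, floor, fold, pseudocount, sequences per name and denominator. The work was done in Python 3.11.15 (pandas 2.3.3, numpy 2.4.6; scipy 1.17.1 for intervals; matplotlib 3.10.9 for plots). Positions and gene annotation come from RefSeq and GENCODE on GRCm38.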

Additional observations from a re-analysis of the deposited data

Results flagged for a closer look

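Of the 28 members that reached 100 in at least 1 library, 14 had a diet ratio of the same sign in both depots and 14 of opposite sign. Over all members above 0 in all 4 libraries, those listed here are the 3 whose counting intervals excluded a ratio of 1 on opposite sides in the depots. Both counts belong to the values as deposited. The vWAT-Exos interval of miR-411-5p (1.01 to 1.36) lay close to 1. Scaled to the library totals, its log2 ratio there fell from 0.23 to 0.09. Under that scaling 6 of 25 diet ratios changed sign in vWAT-Exos and 0 of 22 in BAT-Exos. The intervals cover counting error only, and the difference was not tested because every group is a single library. miR-543-3p has no interval in vWAT-Exos, where it was at 0 on HFD and 9.53 on LFD, the last below the 11.8 that 5 reads are worth in the HFD library. The log2 ratio of HFD over LFD of vWAT-Exos, less the same ratio of BAT-Exos, was 2.87 for miR-379-5p and 3.07 for miR-411-5p, neighbours on the chromosome. It was -2.28 for miR-377-3p, which had 9 and 52 approximate reads in HFD and LFD vWAT-Exos and 103 and 58 in HFD and LFD BAT-Exos.

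The table also lists sequences under names of other species whose number belongs to the region, which the counts above leave out. All were low. Their highest norm values were 27.2 for bta-miR-134_R-2, 26.1 for rno-miR-485-3p, 23.9 for bta-miR-380-3p, 19.0 for bta-miR-154c, 16.3 for dno-miR-134-5p_R+1_1ss22CA, 8.17 for cpo-miR-154-5p_R+1, and 3.53 for both bta-miR-134_R-2_1ss19GA and bta-miR-411c-5p.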

How the results depend on the processing

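Backgrounds over all mouse-named sequences under the same setting stand in brackets. Scaled to library totals, 4 of 28 members were lower on HFD in vWAT-Exos [8.63%] (median log2 ratio -0.36), and in BAT-Exos 0 of 19 were higher [6.34%] (median -0.38). In the depot comparison, 20 of 28 members on HFD [48.1%] (median 1.69) and 25 of 29 on LFD [52.2%] (median 1.79) were higher in vWAT-Exos, 0 were lower on LFD [12.1%], and miR-495-3p on LFD turned to a log2 ratio of 0.062. With no floor, 1 member was higher [8.08%] and 13 lower [22.8%] of 54 for diet in vWAT-Exos (median -0.36), 4 higher [18.0%] and 15 lower [22.98%] of 51 for diet in BAT-Exos, 21 higher [28.9%] and 10 lower [43.5%] of 52 for depot on HFD, and 23 higher [27.7%] and 5 lower [35.02%] of 56 for depot on LFD. With a floor of 10, the counts were 1 higher [8.83%] and 9 lower [15.7%] of 50 for diet in vWAT-Exos (median -0.32), 2 higher [11.6%] and 13 lower [18.2%] of 45 for diet in BAT-Exos, 21 higher [32.7%] and 6 lower [35.6%] of 48 for depot on HFD (median 0.87), and 20 higher [27.4%] and 5 lower [30.3%] of 53 for depot on LFD. At a fold threshold of 3, 0 of 27 members were higher [10.9%] and 0 lower [19.8%] for depot on LFD. Without miR-378a in the total, the members' share was 0.493% in HFD vWAT-Exos, 0.596% in LFD vWAT-Exos, 0.253% in HFD BAT-Exos and 0.344% in LFD BAT-Exos. Over mouse sequences alone it was 0.168% in HFD BAT-Exos and 0.223% in LFD BAT-Exos. More members pass a lower floor by construction, and the cause of the other shifts was not tested. The other 44 values of counts, medians and shares stayed near those reported. For miRNAs at least 2-fold apart, the scalings and the pseudocount were added after seeing the data. Of their log2 ratios 57 stayed within the counting interval, 23 were counted as moved and 1 changed sign. The 23 include the depot ratios of miR-543-3p on HFD, which have no counting interval because it was at 0 in HFD vWAT-Exos. The approximate reads limit precision most in HFD vWAT-Exos, where a norm value of 100 is 42.2 reads. No paired analysis was possible because each group has 1 library and no fit was made.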
